A study of Mus musculus with 40 samples.

Results

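The 10 genes described here, *Gad1*, *Gad2*, *Pvalb*, *Sst*, *Vip*, *Npy*, *Cck*, *Tac1*, *Crh* and *Penk*, mark inhibitory neurons of the cortex or encode neuropeptides. They were picked by symbol from the 43346 genes of the count table, with earlier results of these data known. Each symbol matched 1 gene, and all 10 passed the filter on low values (10 or more counts in 4 or more libraries), as did 21253 genes in all. The 40 libraries came from poly-A RNA of the cortex, 1 per mouse. Each of the 4 groups held 10 mice, split evenly by sex (5 of each). The non-amyloid cohort, aged 6 months, held wild type (WT) mice and mice homozygous for a *Trem2* H157Y knock-in made by CRISPR/Cas9 (Hom). The amyloid cohort, aged 8.5 months, held the same pair of *Trem2* genotypes, and all of its mice also carried the 5xFAD transgenes. These are mutant human genes driven by the neuronal *Thy1* promoter, and they lead to amyloid plaques. *Trem2* encodes a microglial receptor, and counts per gene do not show the altered codon. Age and transgenes differed together between the cohorts, so that their parts in any difference between cohorts cannot be told apart.

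Inhibitory neurons release GABA, which is made from glutamate by the enzymes GAD67 (*Gad1*) and GAD65 (*Gad2*). Cortical interneurons fall into classes that are named after the protein or peptide they hold, chiefly the calcium-binding protein parvalbumin (*Pvalb*) and the peptides somatostatin (*Sst*) and vasoactive intestinal peptide (*Vip*). Peptides are cut from larger precursors, stored in dense core granules and released with strong activity. Neuropeptide Y (*Npy*), cholecystokinin (*Cck*), substance P (*Tac1*), corticotropin-releasing hormone (*Crh*) and the enkephalins (*Penk*) are found in subsets of these cells. *Cck* is also made by many excitatory neurons, and *Penk* and *Tac1* are the abundant peptides of striatal projection neurons. In bulk tissue, fewer cells of a type and less RNA per cell cannot be told apart.

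Total counts ranged from 41646271 to 105903846 per library, with a median of 77193387. The thinnest library, amyloid Hom replicate 19, had 0.66% of its counts on genes annotated as antisense, against 0.0857% to 0.107% in the other 39. The tissue label was checked by marker lists. The 9 excitatory neuron markers and the 8 general neuron markers were counted in every group, and none of them was at 0. The 9 markers of striatal projection neurons, cells that lie beneath the cortex, were also present, with a summed level of 605 to 2491 CPM (counts scaled to the library's size, after TMM normalization). Microglial markers were higher in the amyloid cohort, with a median summed level of 876 CPM in amyloid WT mice and 372 CPM in non-amyloid WT mice. Their part in the results on the 10 genes was not tested.

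The levels of the 10 genes spanned a wide range when set per kilobase of exon length, the scale on which genes can be compared. Over the 40 libraries *Penk* was highest at 165 ± 42.0 CPM per kilobase (SD, n = 40), followed by *Cck* at 128 ± 23.02, *Sst* at 88.0 ± 19.95 and *Npy* at 78.3 ± 25.7. *Gad1* followed at 74.1 ± 6.26, *Gad2* at 55.1 ± 7.73, *Pvalb* at 54.7 ± 10.8, *Vip* at 34.2 ± 4.55, *Tac1* at 18.1 ± 4.38 and *Crh* at 2.60 ± 0.583. *Cck* exceeded *Sst*, *Gad1* exceeded *Gad2*, *Pvalb* exceeded *Vip* and *Tac1* exceeded *Crh* in 40 of 40 libraries, *Vip* exceeded *Tac1* in 39, *Penk* exceeded *Cck* in 32 and *Sst* exceeded *Npy* in 31. *Npy* and *Gad1* did not differ beyond their spread, since *Npy* was the higher of them in 18 of 40 libraries, and neither did *Gad2* and *Pvalb*, where *Gad2* was higher in 19. The order rests on the lengths in the table, which for *Cck* (685 bases), *Sst* (599) and *Vip* (1527) are below the exonic bases of GENCODE vM21 (1305, 721 and 3402). With the GENCODE lengths *Cck* moved from place 2 to 5 and *Npy* from 4 to 2. The mean of *Tac1* (18.05 CPM per kilobase) then stood above that of *Vip* (15.35). Those of *Npy* (78.28) and *Gad1* (74.07) stood above that of *Sst* (73.14), and *Sst* stood above *Cck* (67.1). The counts of libraries given for these pairs thus rest on the lengths of the table. *Penk* and *Crh* stayed first and last, and did so within each of the 4 groups with the lengths of the table.

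**Figure D1:**
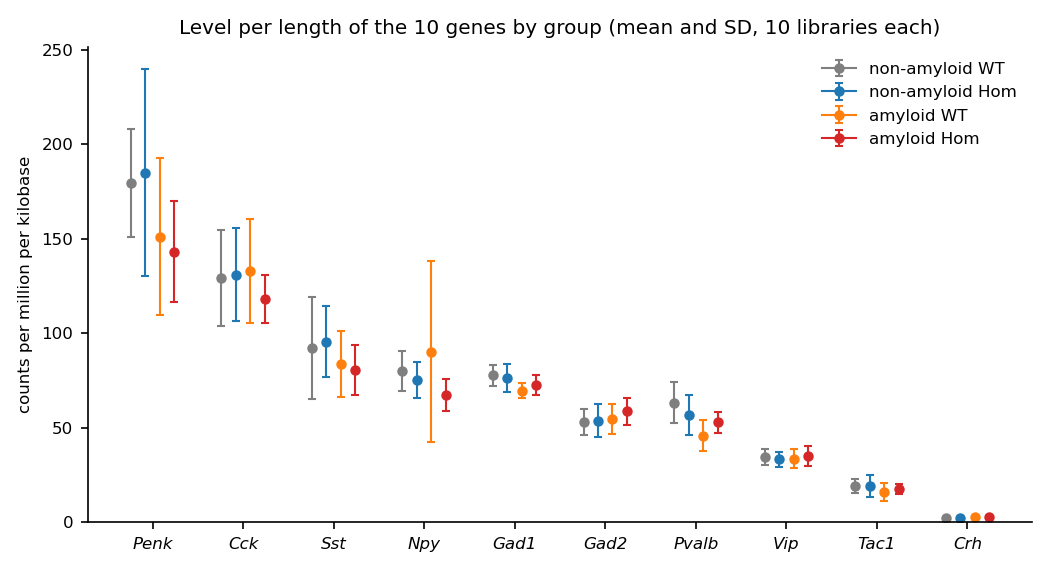
Level per length (vertical axis, CPM per kilobase of the length in the count table) of the 10 genes, ordered by their mean over the 40 libraries. Points are group means and bars SDs of 10 libraries; *Penk* stands highest and *Crh* lowest in each of the 4 groups, and the widest bar among the *Npy* points is that of amyloid WT mice (SD 47.7).

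Of the 10 genes, 1 was called different in 1 of the 5 comparisons of genotype and cohort. *Pvalb* fell in the amyloid cohort compared to the non-amyloid cohort among WT mice. A gene was called with a Benjamini-Hochberg adjusted p under 0.05 in edgeR's quasi-likelihood test over all 21253 genes and an absolute log2 fold change over 0.25. This count of 1 in 10 stands beside 7.95% of all genes called in that comparison, and 1.33% called lower. Unadjusted p was under 0.05 for 2 of the 10 genes there, against 20.9% of all genes. That count was 5 without amyloid WT replicates 5 and 12, 4 with limma-voom, 3 without replicate 12 or 22 alone and 1 with the neuronal markers as the scale. DESeq2 also called 1 of the 10, and limma-voom 2.

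The first question of the study's design is what homozygous H157Y does to the cortical transcriptome with and without amyloid. In the amyloid cohort edgeR called 0 of the 10 genes between Hom and WT mice, beside 0.0753% of all genes. *Npy* and *Pvalb* had an unadjusted p under 0.05, 2 of 10 against 9.67% of all genes. That count was 0 without amyloid WT replicate 12 or amyloid Hom replicate 10, and 1 when any 1 of 9 other libraries was left out. The median log2 fold change of the 10 was 0.06, with 6 above 0 and 4 below, and that of all genes 0.0014. All 8 microglial markers were below 0 in the same comparison, with a median of -0.54. Of these, 7 had an unadjusted p under 0.05 in edgeR, and 0 were called. Calls over all genes here depended on the fit, with 16 in edgeR, 251 with sex as a covariate and 303 with DESeq2. The paper, which left out a Hom female, reported *Trem2*, *Cx3cr1*, *Tmem119* and *P2ry12* among the genes lower in Hom mice. In the non-amyloid cohort 0 of the 10 were called and 0 had an unadjusted p under 0.05, beside 0.0329% and 4.61% of all genes. The median there was 0.011. Fold changes ran from -0.16 (*Pvalb*) to 0.05 (*Sst*) in that cohort. The genotype by cohort interaction, which tests whether the genotype difference itself differs between cohorts, was called for 0 of the 10, as for 0.0% of all genes. Its unadjusted p was under 0.05 for *Pvalb* alone among the 10, and for 10.3% of all genes. DESeq2 and limma-voom each called 0 of the 10 in these 3 comparisons.

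The comparison of cohorts asks how the same genes stood with and without amyloid in each *Trem2* genotype. Among Hom mice 0 of the 10 were called, beside 6.56% of all genes, by edgeR, DESeq2 and limma-voom alike. *Penk* alone had an unadjusted p under 0.05 in edgeR, where 22.6% of all genes did. That count was 0 without non-amyloid Hom replicate 35, 2 without any 1 of 4 other libraries and 3 in a fit of the Hom libraries alone. The median log2 fold change of the 10 was -0.09 in WT mice and -0.11 in Hom mice, with 6 and 7 of the 10 below 0, beside 0.0023 and 0.027 for all genes. The WT and the Hom comparison draw on different mice but share 1 fit.

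**Figure D2:**
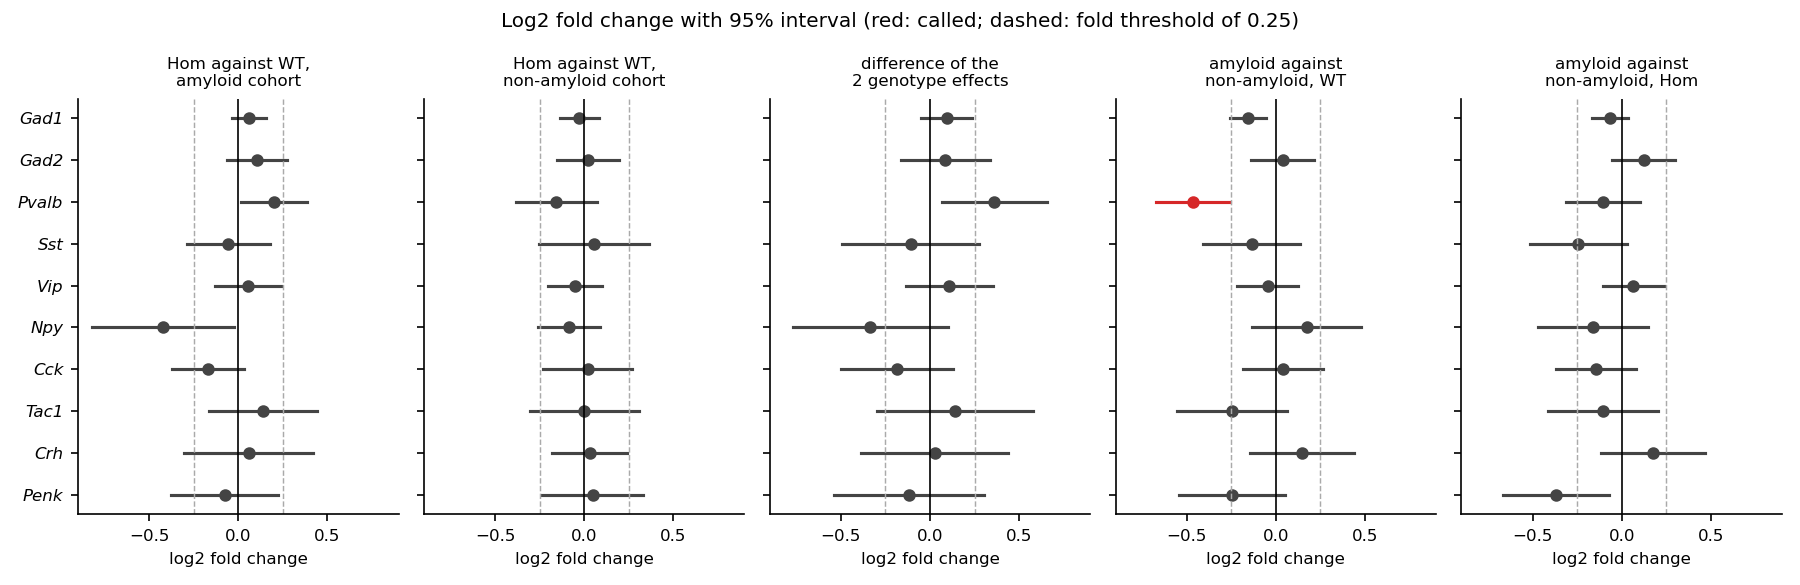
Log2 fold change (horizontal axis) of the 10 genes in 5 comparisons, with 95% intervals from the edgeR fit; dashed lines mark 0.25 in either direction. *Pvalb* in the WT comparison of cohorts (-0.46) is the one called value, and the interval of *Npy* between amyloid Hom and WT (-0.82 to -0.03) is the widest in its panel.

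*Gad1* (chr2:70553072-70602014, mm10) had the smallest spread of the 10 genes. It ran from 495 to 581 CPM in amyloid WT mice (median 530) and from 529 to 657 CPM in non-amyloid WT mice (median 591). All 10 amyloid WT libraries lay below the non-amyloid WT median, and 5 of them below every non-amyloid WT library. The mean was 532 ± 30.5 against 594 ± 41.5 CPM (SD, n = 10 each). The log2 fold change of -0.16 ± 0.05 (SE) had an adjusted p of 0.037 (edgeR quasi-likelihood test), under the limit for p but within the fold threshold, so that *Gad1* was not called. Without amyloid WT replicates 5 and 12, libraries described below, it was -0.16 with an adjusted p of 0.0741. In Hom mice the means were 556 ± 39.6 CPM with amyloid and 581 ± 56.5 CPM without, a log2 fold change of -0.06 with a 95% interval of -0.17 to 0.04.

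*Gad2* (chr2:22622205-22693874) did not follow *Gad1* between cohorts. Its mean was 321 ± 45.5 CPM in amyloid WT and 313 ± 41.0 CPM in non-amyloid WT mice, and 345 ± 41.4 against 317 ± 52.5 CPM in Hom mice. The groups overlapped throughout, and the intervals of all 4 log2 fold changes included 0, the furthest being 0.12 (-0.05 to 0.30) between cohorts in Hom mice. Across libraries the pair did move together. With group means removed, log2 CPM of *Gad1* and *Gad2* had Pearson's r of 0.685 and Spearman's rho of 0.694 over 40 libraries (permutation test within groups, adjusted p = 0.00015 for each over 45 pairs). Within the 4 groups r was between 0.443 and 0.858, and it was 0.618 without the 2 libraries farthest from the median of *Gad1*.

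Of the other genes of GABA synthesis, transport and breakdown, among them the vesicular transporter *Slc32a1*, the uptake carrier *Slc6a11* and the breakdown enzymes *Abat* and *Aldh5a1*, none was called in the 5 comparisons. With *Gad1* and *Gad2* the list held 7 genes, and all 7 had a positive log2 fold change between amyloid Hom and WT mice, with a median of 0.10 beside 0.0014 for all genes. *Abat* (0.12, unadjusted p = 0.0217) and *Aldh5a1* (0.11, p = 0.0282) had the lowest p of the list, with adjusted p of 0.382 and 0.424 in edgeR. In amyloid WT replicates 5 and 12, described below, *Aldh5a1* was at 113.7 and 114.0 CPM, below the other 8 (126.1 to 149.8). *Abat* was at 370.3 and 406.2 CPM there, against 372.1 to 415.6. Neither fold change was refitted without these libraries.

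*Pvalb* (chr15:78191114-78206400) marks fast-spiking interneurons. Its level ran from 36.2 to 61.5 CPM in amyloid WT mice (median 47.9), from 51.9 to 84.1 in non-amyloid WT mice (median 62.9), from 43.8 to 63.7 in amyloid Hom mice (median 54.7) and from 38.4 to 72.6 in non-amyloid Hom mice (median 61.1). Amyloid WT mice were the lowest group: all 10 lay below the non-amyloid WT median, and 7 of 10 below every non-amyloid WT mouse, though the ranges overlapped. *Pvalb* fell by 0.46 ± 0.10 on the log2 scale between these groups (SE; 47.8 ± 8.41 against 66.0 ± 11.5 CPM, SD, n = 10 each; adjusted p = 0.00139, edgeR). The 95% interval was -0.67 to -0.25. It was called under every alternative tried and with any 1 of the 40 libraries left out, where the fold change stayed between -0.52 and -0.42.

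In Hom mice the *Pvalb* difference between cohorts was smaller, 55.0 ± 5.76 against 59.1 ± 10.9 CPM, a log2 fold change of -0.10 (95% interval -0.31 to 0.10; adjusted p = 0.565). Between amyloid Hom and WT mice *Pvalb* had a log2 fold change of 0.20 ± 0.09, with 9 of 10 Hom mice above the WT median (unadjusted p = 0.0338, adjusted p = 0.449, edgeR). In the non-amyloid cohort the sign was opposite, at -0.16 ± 0.11 (adjusted p = 0.965). The test of the difference between these effects gave 0.36 ± 0.15 with an unadjusted p of 0.0178 and an adjusted p of 0.411. It did not pass the test over all genes.

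**Figure D3:**
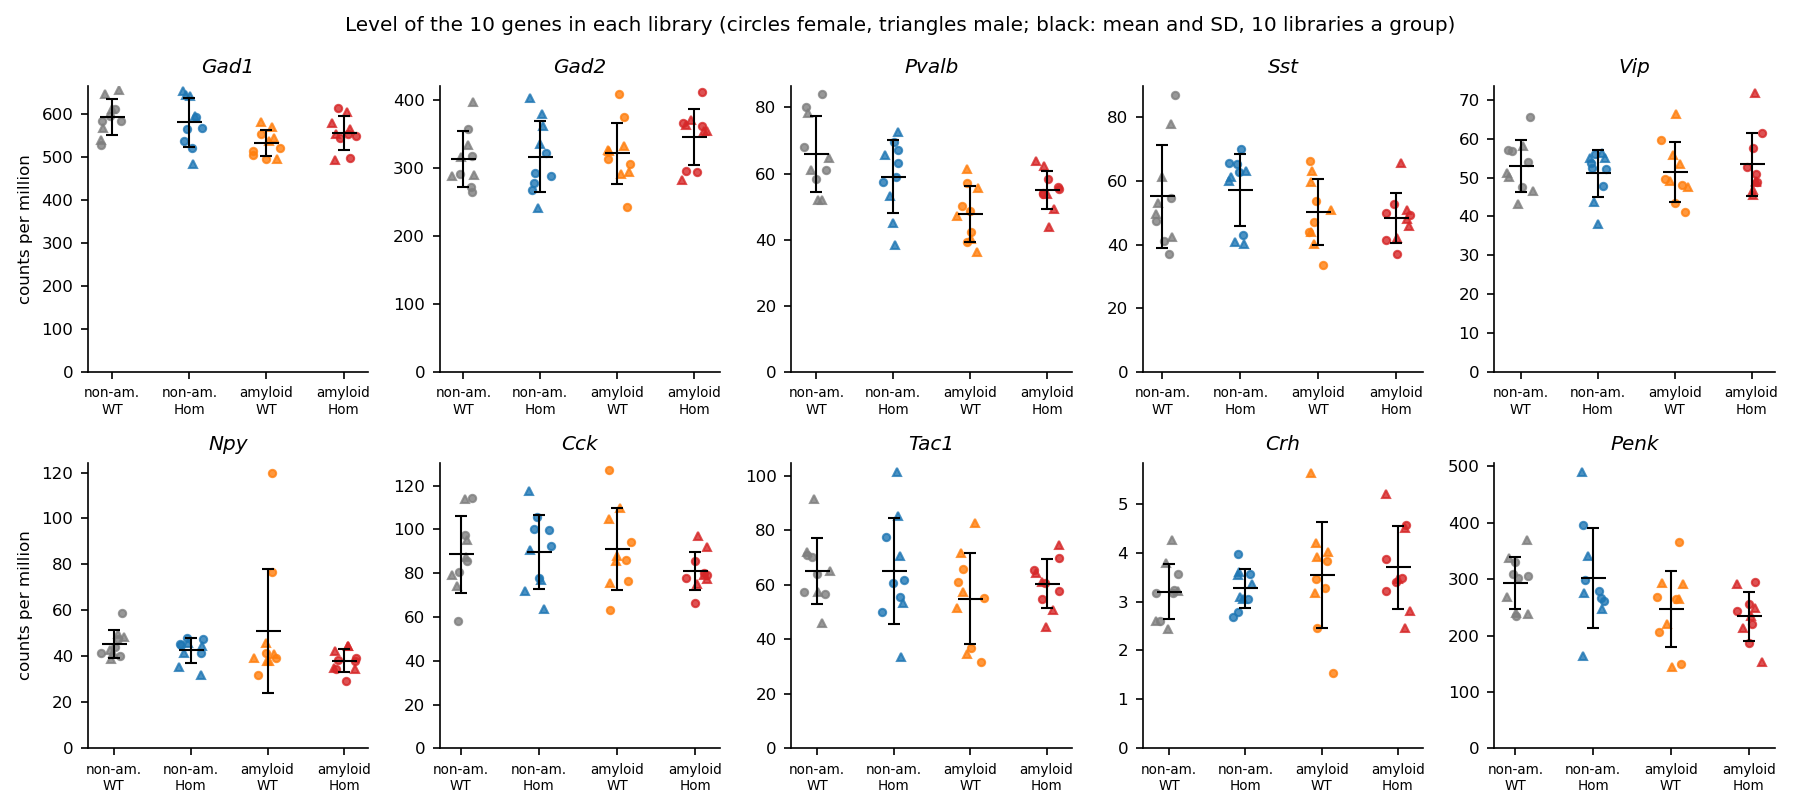
Level of each gene (vertical axis, CPM from 0) in every library of the 4 groups; circles are females, triangles males, and black marks the mean and SD of 10 libraries. For *Pvalb* the amyloid WT points (36.2 to 61.5 CPM) lie lowest as a group, and for *Npy* a pair of amyloid WT females stand above every other library at 76.7 and 120 CPM.

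*Syt2*, a synaptotagmin of parvalbumin synapses, was among the genes called between cohorts in WT mice in the list of 30 interneuron transcription factors and class genes. It fell by 0.37 ± 0.09 on the log2 scale (71.5 ± 11.9 against 92.6 ± 11.1 CPM; adjusted p = 0.00197, edgeR) and was called with any 1 library left out. In Hom mice its log2 fold change was -0.26, with an adjusted p of 0.0544. Of the same list *Nos1* (neuronal nitric oxide synthase) rose by 0.40 in WT mice (adjusted p = 0.0347), and *Chodl*, which marks long-range *Sst* and *Nos1* cells, rose by 0.50 in Hom mice from 1.20 to 1.70 CPM (adjusted p = 0.0417). The *Nos1* call was lost without amyloid WT replicates 5 and 12 (0.19, adjusted p = 0.377), and the *Chodl* call when any 1 of 12 libraries was left out. The potassium channel genes *Kcnc1* and *Kcnc2* of fast-spiking cells were not called in either genotype.

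In all, 3 of these 30 genes were called in WT mice (2 higher, 1 lower) and 2 in Hom mice, beside 7.95% and 6.56% of all genes, with median log2 fold changes of -0.02 and 0.04. Between Hom and WT mice 0 of the 30 were called in either cohort, with 4 and 1 at an unadjusted p under 0.05, beside 9.67% and 4.61% of all genes. *Lhx6*, the factor of *Pvalb* and *Sst* interneurons, had the lowest p of the list in the non-amyloid cohort (0.15, adjusted p = 0.965, edgeR).

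*Sst* lies on chr16:23889581-23890844, minus strand. Its promoter window in RefSeq (GRCm38.p6, the build of mm10) is the only one of the 8 genes with a window here that holds the letters TGACGTCA, the cyclic AMP response element known for this gene. The stretch before the start site, chr16:23890845-23890964, minus strand, is shown because it carries these letters, in capitals, 48 to 41 bases before the start.
*Sst* promoter: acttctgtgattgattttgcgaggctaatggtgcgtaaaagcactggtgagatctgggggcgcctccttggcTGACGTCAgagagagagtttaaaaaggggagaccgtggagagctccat
The letters read the same on both strands, and 1.79% of the 32851 promoter windows of 300 bases hold them. Their absence from the windows of *Gad1*, *Gad2*, *Pvalb*, *Vip*, *Npy*, *Cck* and *Tac1* says only that these letters are not in those windows. No window was at hand for *Crh* and *Penk*.

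The level of *Sst* did not pass the test in any comparison. It ran from 33.7 to 66.2 CPM in amyloid WT, 37.1 to 87.2 in non-amyloid WT, 36.9 to 65.8 in amyloid Hom and 40.1 to 70.0 in non-amyloid Hom mice. In Hom mice 9 of 10 amyloid libraries lay below the non-amyloid median (48.3 ± 7.85 against 57.2 ± 11.3 CPM), and the log2 fold change was -0.24 with a 95% interval of -0.52 to 0.03 (adjusted p = 0.276, edgeR). In WT mice it was -0.14 (-0.41 to 0.14). The peptide *Cort*, a relative of somatostatin, was low in every group, with means of 1.497 to 1.72 CPM.

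*Sst*, *Npy* and *Cck* varied together from mouse to mouse. Over 40 libraries with group means removed, r was 0.714 for *Sst* with *Cck*, 0.633 for *Npy* with *Cck* and 0.575 for *Sst* with *Npy* (rho 0.689, 0.645 and 0.634; adjusted p = 0.00018, 0.00015 and 0.00015 for r and 0.000225, 0.00015 and 0.00015 for rho, permutation test). Without the 2 libraries farthest on the first gene of each pair, r was 0.655, 0.659 and 0.509. Within groups r was between 0.238 and 0.891, and for the 2 pairs with *Sst* it was lowest in amyloid Hom mice. The share of all counts on 3204 protein-coding genes shorter than 1000 bases ranged from 1.22% to 1.74%. It moved with the same 3 genes most closely, which are themselves counted in it. Its r was 0.683 with *Sst*, 0.651 with *Npy* and 0.558 with *Cck* (rho 0.655, 0.70 and 0.558; adjusted p over the 10 genes 0.0001, 0.0001 and 0.00183 for r). It was -0.416 with *Gad1* (adjusted p = 0.0222), and the other 6 genes had an adjusted p of r above 0.05. *Npy*, *Sst* and *Cck* are the 3 shortest of the 10 genes in the table, at 566, 599 and 685 bases. They are the only ones of the 10 inside the share, and it was not recomputed without them. The part of that share in the relations among them was not tested. The measure was added after the genes most like *Sst* had been seen. The mean log2 CPM of the 8 general neuron markers had r = 0.673 with *Cck* and -0.721 with *Gad2* (rho 0.668 and -0.761; adjusted p = 0.0001 for r of each, permutation test), and without the 2 libraries farthest on it r was 0.562 and -0.708. Within groups r was 0.455 to 0.887 for *Cck* and -0.834 to -0.521 for *Gad2*. Its r with *Gad1*, *Sst*, *Vip* and *Tac1* was -0.425, 0.448, 0.36 and -0.378 (adjusted p = 0.0211, 0.0246, 0.0449 and 0.0449).

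*Npy* (chr6:49822710-49829507) had the largest fold change of the 10 genes between genotypes. In amyloid WT mice its level ran from 31.99 to 120 CPM with a median of 40.2, and in amyloid Hom mice from 29.3 to 44.7 with a median of 38.3. The medians were close, and 2 amyloid WT females, replicate 12 (120 CPM) and replicate 5 (76.7 CPM), stood above every other library of the study. The other 8 libraries of their group lay between 31.99 and 45.8 CPM. The log2 fold change between Hom and WT was -0.42 ± 0.19 (38.1 ± 4.92 against 51.1 ± 26.99 CPM; unadjusted p = 0.0377, adjusted p = 0.465, edgeR). It was -0.19 without replicate 12 and -0.05 without both. Between cohorts in WT mice *Npy* turned from 0.17 to -0.06 without replicate 12 and to -0.20 without both (unadjusted p = 0.0195, adjusted p = 0.163). In Hom mice the cohorts differed by -0.16 (-0.47 to 0.15), with all 10 amyloid Hom libraries below the non-amyloid Hom median of 44.9 CPM.

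Replicates 5 and 12 of the amyloid WT group stood apart in other neuronal genes as well, which were looked at after their *Npy* values had been seen. Both lay below the other 8 libraries for *Crh* (1.54 and 2.45 CPM, against 3.17 to 5.64) and *Vip* (43.4 and 41.0, against 47.5 to 66.4). Among the other listed genes both were above the other 8 in 19 of 94, such as *Bdnf* (57.5 and 61.0 CPM, against 24.3 to 37.9), the thyrotropin-releasing hormone gene *Trh* (22.9 and 11.8, against 3.77 to 8.31) and the granule gene *Chga* (167 and 268, against 48.7 to 132). They were below them in 21 of 94, such as *Cort* (0.703 and 0.534, against 1.21 to 2.26) and *Lamp5* (133 and 94.96, against 191 to 295). Over all 21253 genes the pair was above the other 8 for 14.7% and below for 12.9%. The summed level of 6 hippocampal markers was 379 and 301 CPM in replicates 5 and 12 and 104 to 205 CPM in the other 8, and 4 of the 6 markers were above in both. The summed level of 8 general neuron markers was 8565 and 8240 CPM, below the 8599 to 9880 CPM of the other 8, and 3 of the 8 markers were below in both. The summed level of 6 astrocyte markers, 5474 and 6002 CPM, lay within the 4943 to 6598 CPM of the others. Of these 6 markers, 2 were above the other 8 in both and 2 were below. The part of hippocampal tissue and of neuronal content in these values was not tested.

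**Figure D4:**
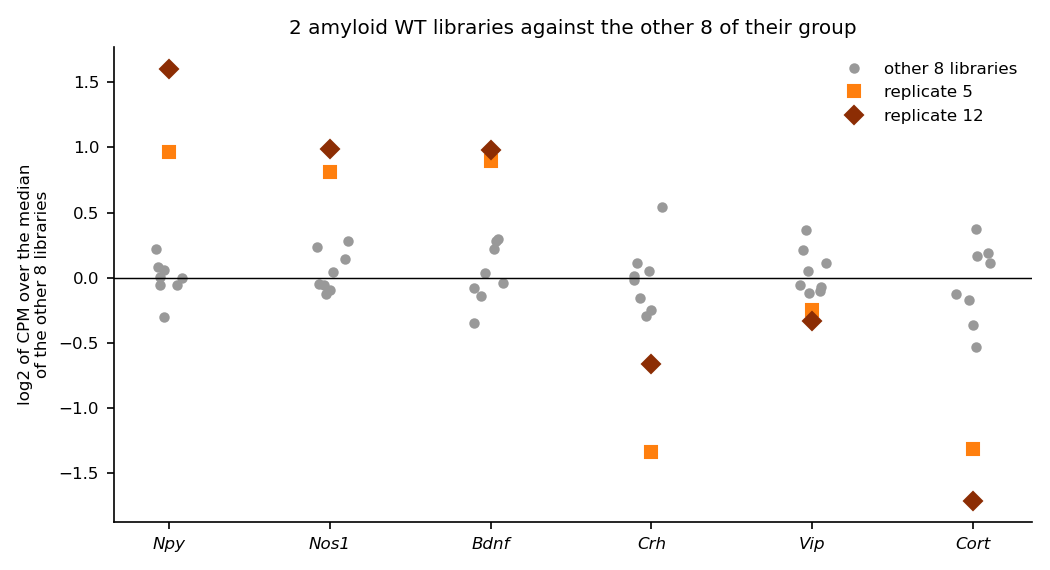
Level of 6 genes in the 10 amyloid WT libraries, as log2 of CPM over the median of the other 8 (vertical axis); coloured symbols are replicates 5 and 12. Both lie above the grey points for *Npy*, *Nos1* and *Bdnf* and below them for *Crh*, *Vip* and *Cort*; the 6 genes were picked after these values were seen.

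*Vip* (chr10:5639218-5647614) held its level, between 51.1 ± 6.05 and 53.4 ± 8.13 CPM in the 4 group means. Each of its log2 fold changes in the 4 comparisons of 2 groups was within 0.07 of 0, and the widest 95% interval among them, that of amyloid Hom against WT, was -0.13 to 0.24. *Crh* (chr3:19693401-19695396), the stress peptide, was the scarcest of the 10, with 142 to 441 counts per library. Its group means were 3.20 ± 0.567 and 3.27 ± 0.404 CPM in non-amyloid WT and Hom mice and 3.55 ± 1.09 and 3.696 ± 0.844 CPM in amyloid WT and Hom mice. The differences between cohorts of 0.15 and 0.18 had 95% intervals from -0.14 to 0.44 and from -0.12 to 0.47. *Vip* and *Crh* moved together (r = 0.519, rho = 0.454; adjusted p = 0.0059 and 0.0198), with r of 0.198 to 0.758 within groups.

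*Cck* (chr9:121489825-121495689) was at 88.6 ± 17.4 CPM in non-amyloid WT, 89.6 ± 16.8 in non-amyloid Hom, 91.1 ± 18.7 in amyloid WT and 81.0 ± 8.64 in amyloid Hom mice. Between amyloid Hom and WT mice 8 of 10 Hom libraries were below the WT median, and the log2 fold change was -0.17 with a 95% interval of -0.37 to 0.03 (adjusted p = 0.591, edgeR). Its highest value, 127 CPM, was that of amyloid WT replicate 12.

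*Penk* (chr4:4133531-4138819) and *Tac1* (chr6:7554879-7565834) varied widely within groups. *Penk* ran from 145 to 365 CPM in amyloid WT (median 265), 234 to 369 in non-amyloid WT (median 304), 153 to 294 in amyloid Hom (median 239) and 164 to 490 in non-amyloid Hom mice (median 278). *Tac1* ran from 31.8 to 82.8, 46.1 to 91.4, 44.6 to 74.7 and 33.7 to 102 CPM in the same groups. *Penk* had a log2 fold change of -0.37 ± 0.15 between cohorts in Hom mice (unadjusted p = 0.017, adjusted p = 0.124, edgeR) and of -0.25 ± 0.15 in WT mice (adjusted p = 0.358). Exons of *A830012C17Rik* on the other strand cover 14.3% of the exonic bases of *Penk*. The strand setting of the counting is not given in the sources used here, and the other 9 genes overlap no exon of another gene.

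Both genes moved with the striatal markers. With group means removed, the mean log2 CPM of the 9 markers had r = 0.879 with *Penk* and 0.871 with *Tac1* (rho 0.866 and 0.804; adjusted p = 5e-05 for r of each over the 10 genes, at the smallest value the permutations can give). Without the 2 libraries farthest on the marker mean r was 0.835 and 0.833, and within groups r was 0.796 to 0.951 for *Penk* and 0.569 to 0.945 for *Tac1*. The same marker mean had r = -0.562 with *Vip* (rho -0.543; adjusted p = 0.0011 for r). The non-amyloid Hom male replicate 35 had the highest *Penk* (490 CPM), the highest *Tac1* (102 CPM), the highest *Ppp1r1b*, a striatal marker (642 CPM), and the lowest *Vip* of all libraries (38.1 CPM).

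Between cohorts 7.95% of all genes were called in WT mice and 6.56% in Hom mice. All 9 striatal markers were lower in the amyloid cohort in both genotypes. Their median was -0.47 in WT mice, where 2 were called (*Drd1* among them), and -0.34 in Hom mice, where 1 was called (*Ppp1r1b*). Their summed level ran from 605 to 1288 CPM in amyloid WT, 945 to 1492 in non-amyloid WT, 770 to 1337 in amyloid Hom and 775 to 2491 in non-amyloid Hom mice. With their mean as a covariate the *Penk* difference between cohorts in WT mice went from -0.25 to 0.12 and that of *Tac1* from -0.25 to 0.12. In Hom mice *Penk* went from -0.37 to -0.054 and *Tac1* from -0.11 to 0.24 (adjusted p = 0.739 and 0.0806, edgeR). *Pvalb* was still called in WT mice, at -0.58. That covariate comes from the same libraries and includes the cohort difference of the markers.

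**Figure D5:**
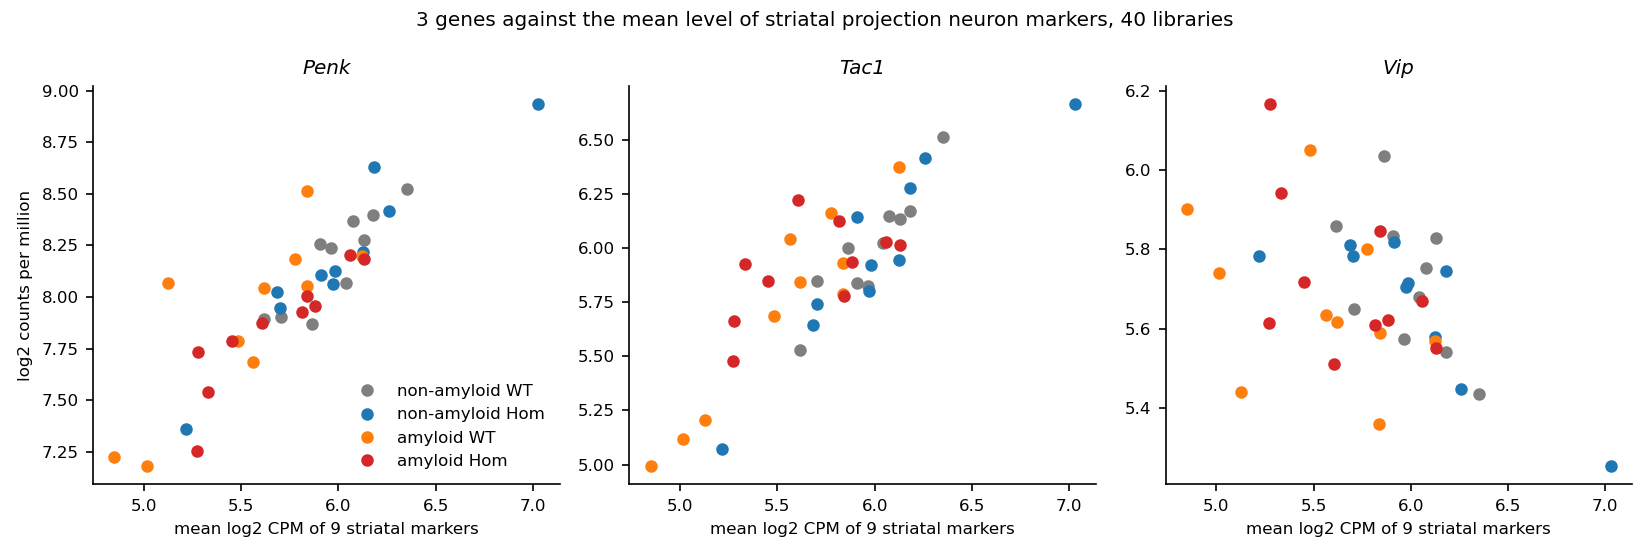
Level of *Penk*, *Tac1* and *Vip* (vertical axis, log2 CPM) against the mean log2 CPM of 9 striatal projection neuron markers (horizontal axis) in 40 libraries coloured by group. *Penk* and *Tac1* climb with the marker mean (r of 0.879 and 0.871 with group means removed) and *Vip* descends (r of -0.562); the library at the far right is non-amyloid Hom replicate 35.

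Sex was balanced in every group and was tested within each cohort with genotype in the model. Of the 10 genes 0 were called between females and males in the amyloid cohort, beside 0.24% of all genes, and 0 had an unadjusted p under 0.05, beside 7.92%. In the non-amyloid cohort 0 were called, beside 0.122%, and *Gad2* alone had an unadjusted p under 0.05, beside 6.59% of all genes. *Gad2* was at 300.4 ± 37.6 and 289.5 ± 20.6 CPM in WT and Hom females and at 325 ± 44.8 and 344 ± 62.9 CPM in males (SD, n = 5 each), a log2 fold change of -0.19 with an adjusted p of 0.69 in edgeR. The genotype by sex interaction was called for 0 of the 10 in either cohort, as for 0.0% of all genes. In the amyloid cohort its unadjusted p was under 0.05 for *Npy* (-0.78, adjusted p = 0.817 in edgeR), beside 5.29% of all genes, and both high *Npy* libraries were WT females. In the non-amyloid cohort it was under 0.05 for none of the 10, beside 3.67%. DESeq2 called 0 of the 10 in these 4 comparisons.

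Among 16 other neuropeptides and secreted peptides 0 were called between Hom and WT mice in either cohort. Between cohorts in WT mice 1 of the 16 was called, beside 7.95% of all genes. This was *Gal*, the peptide galanin, with a log2 fold change of 2.32 ± 0.73 (adjusted p = 0.0337, edgeR). Its level was under 1 CPM in most libraries, with a median of 0.231 CPM in amyloid WT and 0.118 CPM in non-amyloid WT mice. The mean of 0.784 CPM rests on replicates 5 and 12 (3.19 and 2.42 CPM), without which the value was 0.85 with an adjusted p of 0.577. In Hom mice *Gal* had a log2 fold change of 1.84 (adjusted p = 0.116) and none of the 16 was called.

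Of 20 receptors for the peptides of the 10 genes 0 were called between Hom and WT mice, and 0 between cohorts in WT mice, beside 7.95% of all genes in the latter. Between cohorts in Hom mice 2 were called, beside 6.56% of all genes. In Hom mice the CRH receptor *Crhr1* fell by 0.32 (15.0 ± 1.55 against 18.7 ± 2.19 CPM; adjusted p = 0.0107, edgeR) and the VIP receptor *Vipr1* by 0.27 (29.9 ± 5.23 against 35.98 ± 2.91 CPM; adjusted p = 0.0457). *Crhr1* was called with any 1 library left out, and *Vipr1* lost its call when any 1 of 17 libraries was left out. In WT mice their log2 fold changes were -0.21 and -0.19 (adjusted p = 0.121 and 0.183). For *Vipr1* the WT value includes amyloid WT replicates 5 and 12 (42.9 and 35.3 CPM), both above the other 8 of their group (25.1 to 32.4). The list's median was -0.01 in WT and 0.08 in Hom mice. The lowest p between amyloid Hom and WT mice was that of the CCK receptor *Cckar*, at 0.563 ± 0.458 against 0.20 ± 0.221 CPM (log2 fold change 1.47, adjusted p = 0.353).

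Of 14 GABA receptor genes 1 was called, between cohorts in WT mice, beside 7.95% of all genes. This was the subunit *Gabra4*, which fell by 0.29 (152 ± 26.6 against 186 ± 28.2 CPM, adjusted p = 0.0317, edgeR). It was not called without replicates 5 and 12 (-0.19, adjusted p = 0.1875), with limma-voom (-0.24) or in a fit of the WT libraries alone (adjusted p = 0.0802). Between amyloid Hom and WT mice 13 of the 14 were positive, with a median of 0.10, and 0 were called. Of 10 genes of peptide processing and granules 1 was called between cohorts in both genotypes, beside 7.95% of all genes in WT and 6.56% in Hom mice. This gene, *Scg5*, encodes the 7B2 chaperone of the convertase PC2. It fell by 0.47 in WT mice (187 ± 20.98 against 259 ± 52.8 CPM; adjusted p = 0.000231) and by 0.29 in Hom mice (202 ± 16.2 against 247 ± 47.4 CPM; adjusted p = 0.0399). In WT mice it was called with any 1 library left out, and in Hom mice the call was lost when any 1 of 10 was left out. The other 9 genes of that list, which include the convertases and secretogranins, were not called in any comparison.

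Over all 45 pairs of the 10 genes, 15 had an adjusted p under 0.05 for r, 8 of them positive and 7 negative, and 14 of these also for rho. The libraries were the points, so that depth, dissection and the shared scaling enter every pair. The highest r was that of *Tac1* with *Penk* (r = 0.768, rho = 0.685; adjusted p = 0.00018 and 0.00027), with 0.681 without the 2 libraries farthest on *Tac1*. The negative pairs included *Vip* with *Penk* (-0.546), *Gad2* with *Pvalb* (-0.529) and *Gad2* with *Cck* (-0.503). For *Gad2* with *Pvalb* r was between -0.727 and -0.508 in 3 groups and -0.0039 in amyloid Hom mice, and the difference between groups was not tested.

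The genes most like each of the 10, by Pearson's r over the 40 libraries with group means removed, are given as a description. For *Penk* they were *Gng7* (0.901) and *Serpina9* (0.899), and for *Tac1* *Slc35d3* (0.921) and *Six3* (0.899), the last of them one of the striatal markers. *Sst* was most like *Tceb2* (0.928) and *Ndufa7* (0.919), *Npy* like *Slc7a4* (0.913) and *Kcnip3* (0.869), and *Cck* like *Mmp17* (0.854) and *Tubb2a* (0.843). *Gad2* was most like *Pde1c* (0.823) and *N4bp2* (0.793), and *Gad1* like *Fam196b* (0.726) and *Grem1* (0.702). *Vip* was most like *Cdk14* (0.813) and *Mapk10* (0.78), *Pvalb* like *Gm13629* (0.796) and *Rspo1* (0.747), and *Crh* like *Pnma2* (0.75) and *Kcnv1* (0.726).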

How the data were processed

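Cortical RNA of 40 mice was sequenced as poly-A libraries. The authors deposited raw counts of reads per gene on mm10, whole numbers for 43346 genes that were not normalized. Per the labels the authors used STAR 2.5.2b and featureCounts 1.5.1, while the paper's methods name TopHat within MAP-RSeq, and which made the table is not settled. The table also gives a length per gene. Groups came from the labels, and ages from the paper's results and figure legends. The study's text leaves out 1 amyloid Hom female, for a low gene count percentage and a strand check, and does not name it. All 10 were kept here. Amyloid Hom replicate 19, a female, had the fewest counts and the highest antisense share (0.66%). Whether it is the library left out is not stated. Without it, calls over all genes between cohorts in Hom mice numbered 967 rather than 1395, and 0 of the 10 genes were called in either case.

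Genes reaching 10 counts in 4 or more libraries were kept, and counts were normalized by TMM and tested with edgeR's quasi-likelihood test (edgeR 4.0.16, R 4.3.3) within each cohort, or over the 40 libraries for comparisons of cohorts and the interaction, with no covariate. CPM values and log2 fold changes were computed here. Adjusted p-values are Benjamini-Hochberg over 21253 genes. limma 3.58.1, DESeq2 1.42.0, other scalings, filters and covariates, and each library left out in turn were alternatives. Relations between genes used 100000 permutations within groups. Groups hold separate mice. Counting error is small beside the spread between mice except for genes near 10 counts. The 10 genes and the lists were chosen with earlier results of these data known. The rule for named genes was all 10 in each comparison, and from each list the genes called or, where none or over 6 were, those with the lowest p, of which only some are printed. *Drd1* is *Drd1a* in the table, and *Hcrt*, a listed peptide, did not pass the filter. Some listed genes are not reported here by name.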

Additional observations from a re-analysis of the deposited data

Results flagged for a closer look

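Dixon's test on each of the 40 combinations of a gene and a group marked 1 library. The *Npy* level of amyloid WT replicate 12, a female, was 120 CPM, with the nearest library of its group at 76.7 CPM (replicate 5), a gap of 0.489 of the group's range, past Dixon's 95% critical value for 10 samples. Chance alone marks about 1 in 20 groups. No genotype difference of the 10 genes differed between cohorts or sexes with an adjusted p under 0.05.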

How the results depend on the processing

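The count of the 10 genes called was 0 in 8 of the 9 comparisons under every alternative run, and 1 between cohorts in WT mice, where it was 2 with limma-voom (*Penk* added, -0.445) and 2 with no fold threshold (*Gad1* added). With any 1 library left out it did not change. Of the log2 fold changes recomputed under the other alternatives, 483 kept their sign and side of the threshold, 35 changed sign and 2 passed the threshold. The cause was not tested.

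Values that changed sign without amyloid WT replicates 5 and 12, a choice made after their *Npy* values were seen, were *Sst* 0.0163, *Vip* -0.00867, *Crh* -0.091 and *Penk* 0.0299 for amyloid Hom against WT, *Npy* 0.0425 and *Crh* -0.123 for the interaction and *Gad2* -0.00618, *Vip* 0.0182, *Npy* -0.203 and *Cck* -0.0393 for the cohorts in WT. With limma-voom they were *Vip* -0.0158, *Crh* -0.0432 and *Penk* 0.0898 for amyloid Hom against WT, *Gad2* -0.00925, *Tac1* -0.0509 and *Penk* -0.00684 for non-amyloid Hom against WT, *Crh* -0.0665 and *Penk* 0.103 for the interaction and *Gad2* -0.0327, *Vip* 0.0531 and *Npy* -0.0771 for the cohorts in WT. With the striatal covariate they were *Tac1* -0.0533 and *Penk* -0.0109 for non-amyloid Hom against WT, *Cck* -0.0017, *Tac1* 0.118 and *Penk* 0.117 for the cohorts in WT and *Vip* -0.036 and *Tac1* 0.243 for the cohorts in Hom. With the neuronal markers as the scale they were *Tac1* -0.00521 for non-amyloid Hom against WT and *Vip* 0.00207 for the cohorts in WT. *Tac1* for non-amyloid Hom against WT was -0.00208 with DESeq2, -0.00183 with its size factors in edgeR, -0.00205 with no filter, -0.0016 in 1 fit of 40 libraries and -0.0113 with library size alone.

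With 1 library left out at a time, values that changed sign ranged from -0.00196 to 0.102 (*Vip*), -0.0285 to 0.157 (*Crh*) and -0.142 to 0.0051 (*Penk*) for amyloid Hom against WT, -0.0185 to 0.0673 (*Gad2*), -0.00118 to 0.151 (*Sst*), -0.0383 to 0.0694 (*Cck*), -0.0928 to 0.0761 (*Tac1*), -0.00808 to 0.0907 (*Crh*) and -0.0582 to 0.117 (*Penk*) for non-amyloid Hom against WT, -0.061 to 0.125 (*Crh*) for the interaction and -0.00534 to 0.0828 (*Gad2*), -0.0585 to 0.232 (*Npy*) and -0.0245 to 0.0886 (*Cck*) for the cohorts in WT.

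Over all genes, calls between amyloid Hom and WT numbered 16, but 303 with DESeq2, 251 with sex as a covariate, 612 in 1 fit of 40 libraries, 25 with limma-voom, 9 with no filter or with the striatal covariate, and 6 to 204 with 1 library left out. For the interaction they numbered 0, but 38 with DESeq2 and 12 with sex as a covariate. Non-amyloid Hom against WT gave 7 and 11 with DESeq2, sex gave 51 and 257 in the amyloid cohort (26 with no filter) and 26 and 48 in the other, and the genotype by sex interaction in the non-amyloid cohort 0 and 1. With 1 library left out these ran from 0 to 22 for the interaction, 4 to 8 for non-amyloid Hom against WT and 19 to 116 for sex in the amyloid cohort. The genes most like each of the 10 held 8 of 20 with Spearman's rho and 14 of 20 without replicate 19. Genes near 10 counts have wide counting error. No paired analysis was run. The paper describes littermate cohorts, but the labels used here give no litter, so that litter could not enter the tests.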
